A study of Homo sapiens with 15 samples.

Results

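The TGF-beta and BMP signalling genes described here are 42 named genes of the pathway, taken as the listed rows of a count table of 19143 rows, and all 42 had a row. They comprise 14 ligands and extracellular partners, 10 receptors, 8 SMADs, and 10 feedback regulators and target genes. RNA sequencing was done on MHCC-97H, an established line of human liver cancer (hepatocellular carcinoma) cells, in 15 libraries of 5 groups with 3 libraries each. The first experiment compared the cells grown in 2D, in a 3D model and in an animal, and the series design asks with it what a 3D environment changes. The second compared cells labelled as treatment controls with heated ones, both grown in 3D. All groups share the 1 cell line. The labels call the libraries biological replicates but do not say which cultures or animals they came from, so p-values measure the spread between these libraries. The temperature, the duration of heating, the material of the 3D model, the host animal and the implantation site are not given in the sources used here.

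Ligands of the TGF-beta family are secreted dimers that bring together type II and type I receptor kinases at the cell surface. TGF-betas and activins signal mainly through SMAD2 and SMAD3, and BMPs through SMAD1, SMAD5 and SMAD9, in each case with the shared partner SMAD4. The pathway induces its own brakes, among them SMAD6, SMAD7, SKIL and PMEPA1, and in many cells BMPs induce the ID genes, whose products block basic helix-loop-helix transcription factors. In liver cancer cells the pathway is known both for growth restraint and for invasive behaviour, depending on the context.

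A member is called changed, or said to pass, by edgeR's test with all libraries of an experiment at an adjusted p below 0.05, unless another tool or setting is named. In the animal libraries against 3D, 9 of 14 ligands and partners, 3 of 10 receptors, 1 of 8 SMADs and 5 of 10 feedback and target genes passed, in all 42.9% of the members against 41.5% of all genes tested. TGFB1, the founding ligand, rose 4.54-fold from 2D to 3D, while TGFB2 was 4.35-fold lower. These are log2 fold changes of 2.18 and -2.12. They shrank to 1.23 and -0.98 when the fit allowed for transcript GC content and length. In the animal libraries PMEPA1, a feedback inhibitor of TGF-beta signalling, was higher than in 2D by 3.91 on the log2 scale, INHBA was 21.9-fold higher and INHBB 13.4-fold lower, and ID1, ID2 and ID3 were all lower. After heat no member passed in edgeR. In DESeq2, a second tool, 8 did, which is 20.0% of the members tested against 12.3% of all genes. INHBA and PMEPA1 were higher and TGFB2, BMP6, LTBP1 and ID2 lower in every heated library than in every control. The heated and control ranges did not overlap for 45.0% of the members tested, against 36.6% of all genes.

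**Figure D1:**
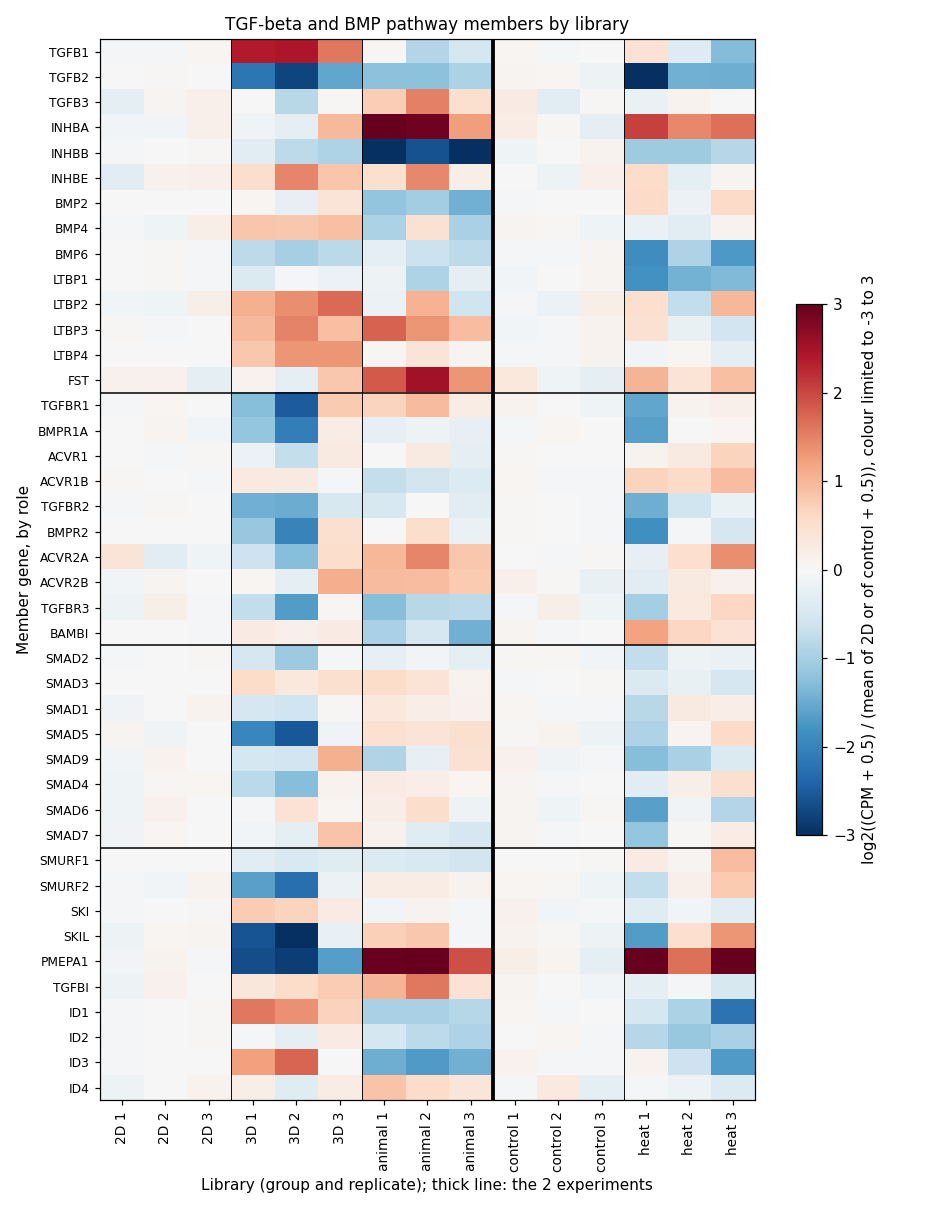
Level of each of the 42 members (rows, by role) in each of the 15 libraries (columns), as log2 of CPM (read counts relative to library size, scaled by TMM within each experiment) plus 0.5 over the mean of the 2D libraries (first 9 columns) or of the controls (last 6), with colours limited to -3 to 3. PMEPA1 is low in the 3D libraries and high in the animal and heated ones, and TGFBR1, BMPR1A, SMAD5 and SKIL are low in 3D 1, 3D 2 and heat 1 but not in 3D 3.

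Total counts were 12605539 to 18634295 per library. In 3 libraries (3D 1, 3D 2 and heat 1) levels followed transcript composition: across genes, the departure from the mean of the 2D libraries had rank correlations with transcript GC content of 0.595 to 0.798, against -0.184 to 0.226 in the other 12. With transcript length these were -0.457 to -0.412, against -0.137 to 0.245. Values without these libraries, or with an offset in the fit for GC content and length, are given beside the results that they move. Without 3D 1 and 3D 2 the 3D group holds 1 library, and the spread in that fit comes from the other groups. Adjusted p-values from that fit therefore do not measure the spread between 3D libraries. The hepatocyte lineage factor HNF4A and the epithelial keratins KRT8 and KRT18 were present in the 2D and animal libraries, at 76.3 to 115, 2088 to 3067 and 666 to 770 CPM. Of the liver markers, GPC3 and EPCAM stayed under 1 CPM in those libraries, and ALB, the albumin gene, was at 2.12 to 2.58 CPM in 2D and 91.8 to 286 CPM in the animal libraries. All 14 liver cancer cell line markers summed to 3870 to 4021 CPM in 2D and 3388 to 3497 CPM in the animal libraries. In 3D 1, 3D 2 and 3D 3 the sums were 8258, 10111 and 3258 CPM. Of 12 tested, 4 were higher and 1 lower in the animal libraries than in 2D, and 2 higher and 1 lower in 3D than in 2D.

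The promoter windows of the genes with the clearest shared or opposite course are shown with matches to SMAD motifs marked. They are the 250 bases before the RefSeq start site in GRCh38.p14, printed 5′ to 3′ on the strand of the gene, with the motif GGCGCC (bound by BMP-type SMADs) or CAGAC (the SMAD3 and SMAD4 box) in capitals. ID1 lies at chr20:31605039-31605288 on the plus strand, ID2 at chr2:8681806-8682055 on the plus strand, ID3 at chr1:23559502-23559751 on the minus strand and PMEPA1 at chr20:57711473-57711722 on the minus strand.
ID1: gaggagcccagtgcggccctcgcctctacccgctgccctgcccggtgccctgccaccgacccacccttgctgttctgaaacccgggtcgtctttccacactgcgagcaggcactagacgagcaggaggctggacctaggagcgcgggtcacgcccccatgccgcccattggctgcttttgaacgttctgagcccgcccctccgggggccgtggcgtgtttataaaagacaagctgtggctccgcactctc
ID2: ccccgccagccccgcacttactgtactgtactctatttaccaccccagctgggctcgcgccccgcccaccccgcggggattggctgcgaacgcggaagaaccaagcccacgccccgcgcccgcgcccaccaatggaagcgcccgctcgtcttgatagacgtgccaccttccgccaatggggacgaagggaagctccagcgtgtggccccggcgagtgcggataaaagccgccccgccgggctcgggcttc
ID3: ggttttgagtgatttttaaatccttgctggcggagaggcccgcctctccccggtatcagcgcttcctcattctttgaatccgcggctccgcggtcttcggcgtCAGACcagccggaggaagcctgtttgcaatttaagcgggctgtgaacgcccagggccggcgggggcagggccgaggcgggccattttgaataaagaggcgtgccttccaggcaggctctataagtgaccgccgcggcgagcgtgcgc
PMEPA1: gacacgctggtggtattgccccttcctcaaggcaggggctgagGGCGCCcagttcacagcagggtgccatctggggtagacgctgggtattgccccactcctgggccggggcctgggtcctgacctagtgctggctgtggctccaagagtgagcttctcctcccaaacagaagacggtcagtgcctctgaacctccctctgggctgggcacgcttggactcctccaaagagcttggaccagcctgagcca

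Neither motif occurred in the ID1 and ID2 windows on either strand, the ID3 window held 1 CAGAC and the PMEPA1 window 1 GGCGCC. Over the 39 members with a RefSeq promoter, 13 (33.3%) held GGCGCC, against 16.4% of all 35116 promoters of the same length. CAGAC occurred in 14 (35.9%) of the members and in 38.0% of all promoters. Members were counted with 1 window per gene, and all promoters with every window listed. GGCGCC consists of G and C only, and the GC content of member windows and all promoters was not compared. No window shown held both motifs, and a match is a description of the sequence only. Sequence outside these windows was not searched, so a window without a motif does not show that the gene lacks one.

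Levels between genes can be compared only per transcript length. On the scale of CPM per kilobase, and using the mean of the 2D libraries, TGFB1 was the ligand with the highest level (92.0), followed by INHBB (43.9), BMP6 (32.0), BMP2 (28.5), BMP4 (14.2) and TGFB2 (9.99). TGFBR2, the type II receptor for TGF-beta, was at 60.9 and BAMBI, a decoy receptor without a kinase, at 51.0, while the type I receptors ranged from 1.92 (BMPR1A) to 12.5 (ACVR1). SMAD3 was the highest SMAD (34.2) and SMAD9 the lowest (0.118). The highest of all members were the targets ID1 (562) and ID3 (313). SMAD2 was at 1.73 on this scale, a value held down by the 34526 bases of its longest transcript.

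In the comparison of 3D with 2D, 7 members were higher and 4 lower at an adjusted p below 0.05 in edgeR's quasi-likelihood test (Benjamini-Hochberg over all genes tested). Of all 12925 genes tested, 20.0% were higher and 12.9% lower, so the members' share of 26.2% was not above the background. The ranges of the 2 groups did not overlap for 20 members (47.6%), against 50.2% of all genes. The median log2 fold change was 0.04 over the members and 0.03 over all genes. Of the 11 calls, 6 were ligands or extracellular partners, 1 was a receptor, none a SMAD and 4 were feedback or target genes.

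TGFB1 was at 248, 249 and 267 CPM in the 2D libraries and at 1334, 1372 and 758 CPM in the 3D libraries. Every 3D library lay above every 2D library, with 3D 1 and 3D 2 the highest. The log2 fold change was 2.18 ± 0.30 (SE, n = 3 libraries per group), with an edgeR adjusted p of 0.00212. With 3D 3 as the only 3D library it was 1.56, and with the GC and length offset 1.23 (edgeR adjusted p = 0.00305). TGFB1 shares 6.64% of its exon bases with HNRNPUL1 on the opposite strand, and counting by strand is not stated.

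TGFB2, a second TGF-beta ligand, went the other way. Its levels were 50.3, 51.5 and 49.7 CPM in 2D and 10.9, 7.05 and 16.8 CPM in 3D, so all 3D libraries were below all 2D libraries. The fitted log2 fold change was -2.12 ± 0.31 (edgeR adjusted p = 0.00245). It was -1.60 with 3D 3 alone and -0.98 with the GC and length offset, where it was still past the threshold. In the annotation 26.6% of its exon bases are shared with TGFB2-OT1 on the same strand, so part of these reads could belong to that transcript. TGFB3, another TGF-beta ligand, stayed under 1 CPM in all 6 libraries.

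BMP6, a BMP known for inducing hepcidin in hepatocytes, was at 90.1, 90.5 and 86.2 CPM in 2D and at 51.6, 44.5 and 50.7 CPM in 3D. The groups did not overlap, and the 3 libraries of 3D lay close together. The change was -0.86 ± 0.19 (edgeR adjusted p = 0.00999), and it was -0.82 with 3D 3 alone. BMP4 was at 24.7 to 30.7 CPM in 2D and 48.1 to 51.2 CPM in 3D, ranges that did not overlap, but it did not pass in edgeR (log2 fold change 0.86, adjusted p = 0.108) while it did in DESeq2 (0.95, adjusted p = 0.0432). BMP2 had overlapping ranges of 102 to 104 and 85.8 to 134 CPM.

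The latency proteins LTBP2, LTBP3 and LTBP4, of which LTBP3 and LTBP4 hold latent TGF-beta in the matrix and LTBP2 is a matrix protein of the same family, were higher in 3D. LTBP4 rose from 96.6, 98.8 and 97.8 CPM to 172, 246 and 244 CPM, a log2 fold change of 1.17 ± 0.20 (edgeR adjusted p = 0.00379). LTBP3 rose from 80.9, 77.0 and 78.8 CPM to 154, 224 and 148 CPM (1.15 ± 0.25, edgeR adjusted p = 0.0108). The low LTBP2 rose from 2.04, 1.96 and 2.53 CPM to 5.13, 6.49 and 8.13 CPM (1.60 ± 0.48, edgeR adjusted p = 0.0338). None of these ranges overlapped, so 3D 3 also lay above every 2D library for all 3. LTBP3 and LTBP4 have GC-rich transcripts (67.8% and 66.7%), and with the GC and length offset their log2 fold changes were 0.35 and 0.48 and no longer passed (edgeR adjusted p = 0.200 and 0.121). LTBP1, the main latency protein of TGF-beta, was at 117 to 124 CPM in 2D and 89.7 to 117 CPM in 3D and did not pass the test.

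Among the receptors only TGFBR2 passed in edgeR with all libraries. It was at 276, 291 and 278 CPM in 2D and at 102, 99.6 and 203 CPM in 3D, below every 2D library but with 3D 3 well above the other 2. The log2 fold change was -1.06 ± 0.29 (edgeR adjusted p = 0.0237), and -0.48 with 3D 3 alone.

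Several other receptors and SMADs differed more within the 3D group than between groups. TGFBR1, the type I receptor for TGF-beta, was at 9.81 and 3.91 CPM in 3D 1 and 3D 2 and at 42.1 CPM in 3D 3, against 23.5 to 25.5 CPM in 2D. BMPR2, the BMP type II receptor, was at 14.0, 7.40 and 43.9 CPM against 30.9 to 31.6 CPM. SMAD5 was at 7.62, 4.88 and 28.9 CPM against 28.7 to 32.7 CPM, and the corepressor gene SKIL at 11.8, 3.07 and 63.5 CPM against 66.1 to 78.1 CPM. These 4 genes have transcript GC contents of 39.0%, 37.6%, 36.9% and 33.4%, low among the members, and none passed in edgeR with all libraries. With the GC and length offset BMPR2 passed (0.50, edgeR adjusted p = 0.0432). With 3D 3 as the only 3D library, the log2 fold change against 2D was 0.78 for TGFBR1 and 1.13 for ACVR2B, an activin type II receptor. It was 0.86 for SMAD7, the inhibitory SMAD of TGF-beta signalling. SMAD3 had separate ranges of 213 to 216 CPM in 2D and 267 to 314 CPM in 3D. It just missed the threshold (0.46, edgeR adjusted p = 0.0692), and with 3D 3 alone the value was 0.47.

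Of the target genes, ID1 was at 674, 699 and 705 CPM in 2D and at 2068, 1798 and 1120 CPM in 3D. All 3D libraries were above all 2D libraries, with a log2 fold change of 1.26 ± 0.23 (edgeR adjusted p = 0.00558). It was 0.68 with 3D 3 alone and 0.14 with the GC and length offset, where it did not pass (edgeR adjusted p = 0.469). ID3 was at 382, 398 and 396 CPM in 2D and at 927, 1306 and 396 CPM in 3D. The log2 fold change of 1.16 ± 0.36 passed the test (edgeR adjusted p = 0.0377), yet 3D 3 lay within the 2D range and with that library alone the value was 0.00. ID2 had overlapping ranges around means of 46.1 and 46.0 CPM, and ID4 stayed under 1 CPM.

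PMEPA1 was at 5.62, 6.47 and 5.87 CPM in 2D and at 0.528, 0.419 and 1.55 CPM in 3D, which is 105 to 122 reads against 6 to 25. All 3D libraries lay below all 2D libraries, and the log2 fold change was -2.81 ± 0.81 (edgeR adjusted p = 0.0290). With the GC and length offset it was -2.91 (0.0245), while with 3D 3 alone it was -1.96 and did not pass (0.359). SKI, a corepressor of SMADs, was at 49.1, 50.0 and 51.0 CPM in 2D and at 84.7, 79.2 and 59.6 CPM in 3D (0.57 ± 0.19, edgeR adjusted p = 0.0431), and it did not pass with 3D 3 alone (0.24, 0.0827) or with the GC and length offset (0.062, 0.736).

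Across these settings the count of calls depended on single libraries. Without any 1 of the 2D libraries, 3D 1 or 3D 2, 3 or 4 members were higher and 2 lower, which is 11.9% to 14.3% of the members against 13.6% to 27.2% of all genes. Without 3D 3, 9 were higher and 16 lower (59.5%), against 72.2% of all genes. With 3D 3 as the only 3D library, which assumes that it varies like the other groups, 14 members were called against 46.4% of all genes, and 8 of the 14 were among the 11 above.

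**Figure D2:**
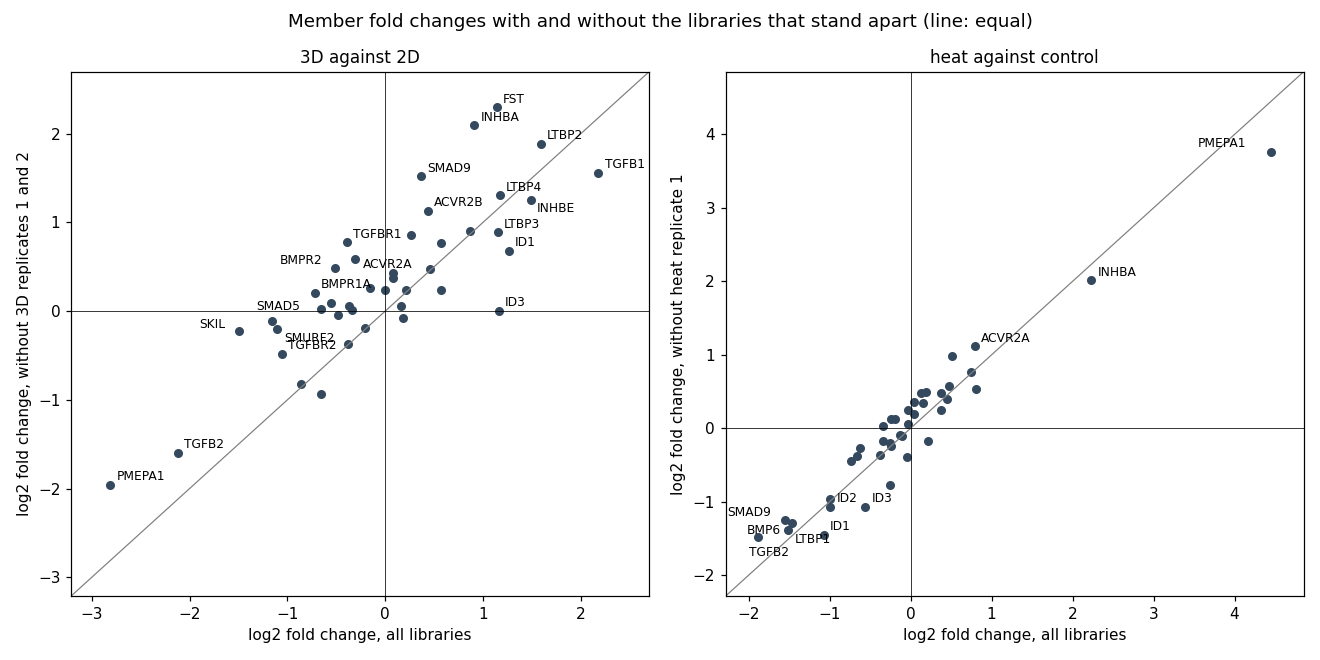
Log2 fold change of each tested member with all libraries (x axis) and without the libraries whose levels followed GC content (y axis), for 3D against 2D without 3D 1 and 3D 2 (left) and heat against control without heat 1 (right). The line marks equal values: TGFB2 and TGFB1 keep their direction, ID3 comes down to 0.00 on the left, and INHBA and PMEPA1 stay at the upper right after heat.

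The animal libraries were compared with 2D and with 3D. These 2 comparisons share the animal libraries. With the comparison above, the first shares the 2D libraries and the second the 3D libraries. Their values are therefore set side by side and are not independent. Against 2D, 5 members were higher and 7 lower (28.6%), where 7.78% of all genes were higher and 4.25% lower. The ranges did not overlap for 30 members (71.4%), against 66.4% of all genes, so by this count the members were close to the background. The median log2 fold change was 0.08 over the members and 0.03 over all genes. Against 3D, 7 members were higher and 11 lower (42.9%), where 18.6% of all genes were higher and 22.9% lower, and the ranges did not overlap for 24 members (57.1%) against 50.2% of all genes. There the median was 0.20 over the members and 0.10 over all genes.

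Markers of fibroblasts, endothelium and leukocytes also differed in the animal group, and the 1 red blood cell marker that was tested was higher than in 2D (log2 fold change 4.56) and than in 3D (3.10). The summed level of 13 fibroblast and pericyte markers was 188 to 510 CPM in the animal libraries, 147 to 159 CPM in 2D and 276 to 330 CPM in 3D, and 5 of 7 tested markers were higher and 1 lower than in 2D. COL3A1 was at 25.9, 66.5 and 17.9 CPM in the animal libraries and under 1 CPM in 2D, while THY1 was at 0 in all 3 animal libraries and PDGFRA and PDGFRB stayed between 0.181 and 1.38 CPM. The sum of 8 endothelial markers was 6.86 to 17.3 CPM against 1.43 to 1.72 CPM in 2D, with both tested markers higher, EMCN at 0 in all 6 libraries and VWF at 0 in 2 of the 3 animal libraries. The sum of 9 macrophage and leukocyte markers was 161 to 217 CPM against 103 to 109 CPM in 2D and 392 to 475 CPM in 3D, and 3 of 5 tested markers were higher than in 2D, in the animal and in the 3D libraries alike by count. Whether host reads were removed is not given in the sources used here, and the part of these cells or reads in the results below was not tested. In bulk libraries fewer cells of a type and less RNA per cell cannot be told apart.

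INHBA encodes the beta A subunit of activin A. It was at 0.161, 0.159 and 0.269 CPM in 2D and 0.151, 0.0698 and 0.869 CPM in 3D, and at 7.46, 4.74 and 1.15 CPM in the animal libraries, where animal 3 was the lowest. All animal libraries were above all others of the experiment. The fitted log2 fold change was 4.45 ± 0.92 against 2D (edgeR adjusted p = 0.0157, 11 reads in 2D in all 3 libraries together) and 3.54 ± 0.87 against 3D (0.0131), but without 3D 1 and 3D 2 the latter was 2.34 and did not pass (0.0892). FST, which encodes the activin trap follistatin, moved with it at lower counts. It had 28, 43 and 17 reads in the animal libraries (1.69, 2.96 and 1.03 CPM), 3, 3 and 0 in 2D and 2, 0 and 9 in 3D, and passed against 2D (4.05 ± 0.97, edgeR adjusted p = 0.0275) and against 3D (2.90 ± 0.90, 0.0302). Without 3D 1 and 3D 2 the difference from 3D was 1.73 and did not pass (0.149).

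INHBB, which encodes the activin beta B subunit, was at 136, 141 and 144 CPM in 2D and 113, 81.2 and 74.0 CPM in 3D, but at 3.07, 22.5 and 5.94 CPM in the animal libraries. Every animal library lay below every library of the other groups. The log2 fold change was -3.75 ± 0.65 against 2D (edgeR adjusted p = 0.00699) and -3.09 ± 0.63 against 3D (0.00611; -2.85 and 0.0134 without 3D 1 and 3D 2). INHBE, another beta subunit gene, known from liver, had 7 to 36 reads per library in the first experiment and passed no comparison of it in edgeR, while DESeq2 called it higher in 3D than in 2D (1.60, adjusted p = 0.0326).

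TGFB1 was at 259, 138 and 178 CPM in the animal libraries, which overlapped the 2D range and lay below every 3D library. Its log2 fold change was -0.41 against 2D (edgeR adjusted p = 0.427) and -2.59 ± 0.31 against 3D (0.000768; -1.99 and 0.00103 without 3D 1 and 3D 2). TGFB2 was at 21.2, 21.2 and 25.9 CPM, below 2D (-1.15 ± 0.30, edgeR adjusted p = 0.0372) and above 3D (0.97 ± 0.30, 0.0300; 0.43 and 0.0416 without 3D 1 and 3D 2). With the GC and length offset the difference from 3D turned to -0.41 and did not pass (edgeR adjusted p = 0.172). TGFB3 was at 1.62, 3.09 and 1.27 CPM, above 0.755, 0.209 and 0.807 CPM in 3D (1.74 ± 0.54, edgeR adjusted p = 0.0312), on 21 to 45 reads per animal library, and this call was lost without 3D 1 and 3D 2 (1.28, 0.135).

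BMP2 was at 102, 103 and 104 CPM in 2D and at 44.6, 49.6 and 37.8 CPM in the animal libraries. The animal range lay below 2D and below 3D, with log2 fold changes of -1.22 ± 0.21 (edgeR adjusted p = 0.00637) and -1.31 ± 0.21 (0.00225), the latter -1.62 without 3D 1 and 3D 2 (0.000106). BMP4 was at 13.8, 37.6 and 13.6 CPM, below the 3D libraries (49.1, 48.1 and 51.2 CPM; -1.19 ± 0.38, edgeR adjusted p = 0.0348) with animal 2 well above the others, and the call was lost without 3D 1 and 3D 2 (-1.26, 0.0751). BMP6 passed neither comparison in edgeR, while DESeq2 called it lower than in 2D (-0.58, adjusted p = 0.0190) and the offset called it in both (0.0348 and 0.0311).

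Of the latency proteins, LTBP3 was at 270, 197 and 151 CPM in the animal libraries, above every 2D library (1.39 ± 0.26, edgeR adjusted p = 0.00897) and overlapping the 3D range. Against 3D it did not pass (0.23, edgeR adjusted p = 0.455), but with the GC and length offset it was higher (1.43, 0.00061). LTBP4 was at 102, 127 and 103 CPM, just above the 2D range without passing the test, and below 3D (-0.99 ± 0.20, edgeR adjusted p = 0.00505; -1.14 and 0.000314 without 3D 1 and 3D 2), but with the GC and length offset the difference from 3D was 0.061 (0.839). LTBP1 and LTBP2 passed neither comparison in edgeR, while DESeq2 called LTBP2 lower than in 3D (-1.39, adjusted p = 0.0128).

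Of the 10 receptors, 1 passed against 2D and 3 against 3D. BAMBI was at 96.1, 96.9 and 93.8 CPM in 2D, 114, 106 and 114 CPM in 3D and 48.1, 67.4 and 35.0 CPM in the animal libraries, which lay below both groups. The log2 fold changes were -0.93 ± 0.24 (edgeR adjusted p = 0.0337) and -1.15 ± 0.24 (0.00615; -1.19 and 0.0104 without 3D 1 and 3D 2). ACVR1B, the activin type I receptor, was at 22.0, 24.8 and 27.4 CPM against 45.1, 44.1 and 34.8 CPM in 3D (-0.74 ± 0.19, edgeR adjusted p = 0.0156; -0.50 and 0.0169 without 3D 1 and 3D 2). ACVR2A, an activin type II receptor, was at 5.66, 7.91 and 4.85 CPM against 1.51, 0.768 and 3.91 CPM in 3D (1.56 ± 0.54, edgeR adjusted p = 0.0463), and this call was lost with 3D 3 alone (0.64, 0.231). The other 7 receptors, TGFBR1, BMPR1A, ACVR1, TGFBR2, BMPR2, ACVR2B and TGFBR3, passed neither comparison in edgeR with all libraries. DESeq2 called ACVR2B against 2D (0.91, adjusted p = 0.0472) and TGFBR2 against 3D (0.72, 0.0299), both higher. With the offset BMPR1A, BMPR2 and TGFBR3 were lower than in 3D (-0.54, -0.67 and -1.02, edgeR adjusted p = 0.0159, 0.0107 and 0.00536).

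SMAD5 was the only SMAD that passed in edgeR with all libraries. It was at 42.6, 40.4 and 43.0 CPM in the animal libraries against 7.62, 4.88 and 28.9 CPM in 3D (1.60 ± 0.56, edgeR adjusted p = 0.0466), and at 28.7 to 32.7 CPM in 2D, from which it did not differ by the test. With 3D 3 alone the value was 0.53 (0.00755), and with the GC and length offset 0.31 (0.113). Other SMADs passed only in other settings, among them SMAD3 in 3D against 2D by DESeq2 (0.54, adjusted p = 0.00747), SMAD7 in animal against 3D without 3D 1 and 3D 2 (-1.10, 0.00438) and SMAD2 with the offset against 2D and 3D (-0.73 and -1.19, 0.00914 and 0.000678).

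The feedback and target genes went in opposite directions in the animal libraries. PMEPA1 was at 50.5, 196 and 24.2 CPM there, against 5.62 to 6.47 CPM in 2D and 0.419 to 1.55 CPM in 3D. The animal libraries were far apart from each other, with animal 2 the highest, but all lay above all others. The fold change on the log2 scale was 3.91 ± 0.77 against 2D (edgeR adjusted p = 0.0123) and 6.72 ± 0.91 against 3D (0.00126; 5.84 and 0.0183 without 3D 1 and 3D 2). PMEPA1 shares 6.10% of its exon bases with the antisense transcript NKILA. TGFBI, a matrix protein gene induced by TGF-beta, was at 288, 430 and 193 CPM against 127, 156 and 144 CPM in 2D (1.10 ± 0.28, edgeR adjusted p = 0.0370). It did not pass against 3D (181, 207 and 243 CPM). Among the members called higher than in 2D, PMEPA1, TGFBI and FST were highest in animal 2, and INHBA and LTBP3 in animal 1. Animal 2 also had the highest sum of fibroblast and pericyte markers, and a link was not tested.

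ID1 was at 355, 353 and 381 CPM in the animal libraries, below every 2D and every 3D library. The fitted log2 fold change was -0.93 ± 0.23 against 2D (edgeR adjusted p = 0.0308) and -2.19 ± 0.24 against 3D (0.000565). ID3 was at 142, 120 and 144 CPM, again below all others, with -1.53 ± 0.37 against 2D (edgeR adjusted p = 0.0271) and -2.70 ± 0.38 against 3D (0.00144). ID2 was at 31.6, 26.7 and 24.1 CPM against 44.0, 46.9 and 47.5 CPM in 2D and 44.8, 38.2 and 54.8 CPM in 3D, with smaller changes of -0.75 ± 0.21 (edgeR adjusted p = 0.0456) and -0.74 ± 0.21 (0.0199). Without 3D 1 and 3D 2 the differences from 3D were -1.63, -1.56 and -1.003 for ID1, ID3 and ID2. With the GC and length offset they were -1.33, -1.86 and -0.51, and ID2 did not pass there (edgeR adjusted p = 0.129). SKI was at 47.2, 53.4 and 48.4 CPM, below 3D (-0.59 ± 0.19, edgeR adjusted p = 0.0340), but the difference was -0.27 with 3D 3 alone (0.0566) and 0.046 with the offset (0.791). SKIL was at 122, 130 and 70.7 CPM and SMURF1 and SMURF2, which encode ubiquitin ligases for receptors and SMADs, at 183 to 202 and 33.7 to 36.5 CPM, and none of the 3 passed in edgeR with all libraries. DESeq2 called SMURF1 lower than in 2D (-0.50, adjusted p = 0.00136) and SMURF2 higher than in 3D (1.24, 0.0143), and the offset called SKIL higher than in 3D (0.85, 0.0233).

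The animal calls depended on single libraries as well. Without any 1 of the 2D libraries, 0 members were higher and 2 lower than in 2D (BMP2 and INHBB), 4.76% of the members against 4.94% to 5.24% of all genes. Without any 1 of the animal libraries 2 to 5 were higher and 2 to 4 lower, 9.52% to 16.7% against 6.45% to 8.84%. When the fit held only the animal and 2D libraries, which leaves the widely spread 3D group out of the estimate of the spread, 12 were higher and 12 lower, against 57.4% of all genes called. Against 3D, with 3D 3 as the only 3D library, 16 members were called against 47.1% of all genes, and 12 of the 16 were among the 18 above. Without 3D 3, 17 were higher and 11 lower (66.7%), against 77.0% of all genes.

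**Figure D3:**
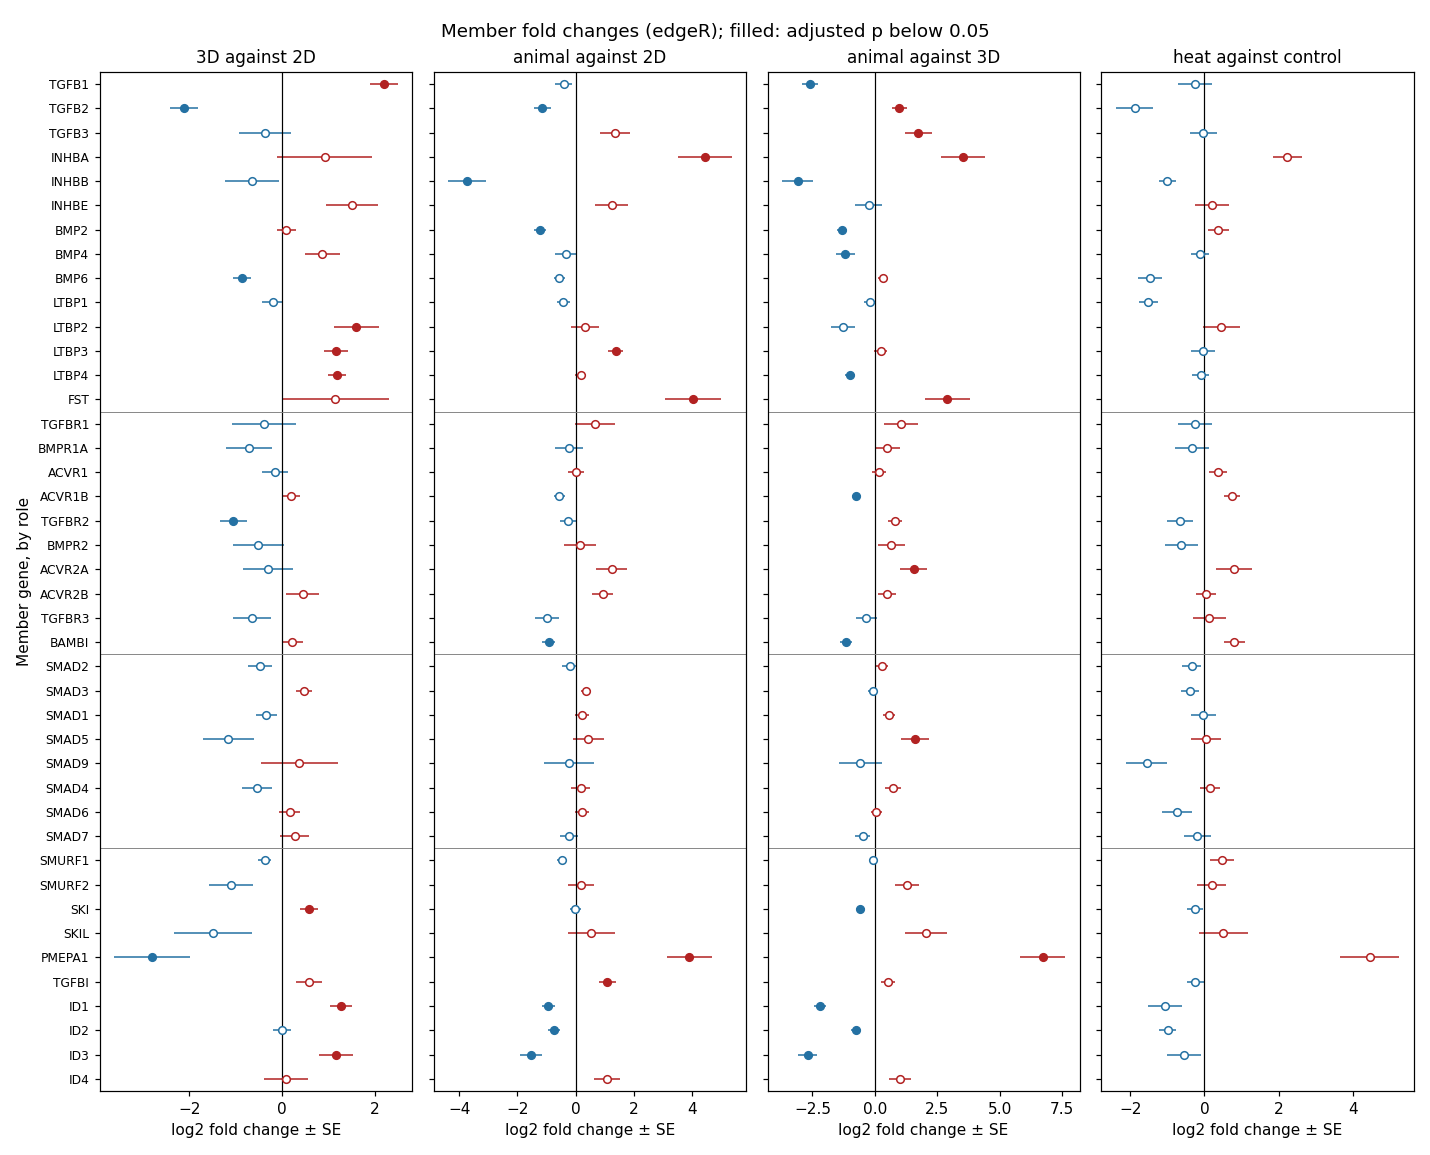
Log2 fold change ± SE of each member (rows, by role) in the 4 comparisons, from edgeR, with filled points for an adjusted p below 0.05. The x axes differ between panels, FST and ID4 have no value after heat, and the filled points are mostly in the ligand and target blocks.

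In the heat comparison 40 members were tested, since FST and ID4 were under the filter on low counts. No member was called by edgeR, and 0.0238% of all genes (3 of 12627) were. At an unadjusted p below 0.05 there were 10 of the 40 members and 2628 of all genes. DESeq2 called 8 members (3 higher, 5 lower) against 12.3% of all genes. The ranges of the groups did not overlap for 18 members (45.0%), against 36.6% of all genes, and the median log2 fold change was -0.11 over the members and 0.10 over all genes. Heat 1, the library whose levels followed GC content, stood apart from heat 2 and heat 3 for many members. Without it 12 members passed, 6 higher and 6 lower, against 28.8% of all genes, and with the GC and length offset 10 passed against 10.9% of all genes. The fibroblast and pericyte sum was 296 CPM in heat 1, 111 and 121 CPM in heat 2 and heat 3 and 170 to 177 CPM in the controls. The macrophage and leukocyte sum was 524, 407 and 244 CPM against 227 to 246 CPM, and the sum of the liver cancer cell line markers 5060, 1724 and 1745 CPM against 3193 to 3435 CPM. No tested marker passed in edgeR, and their part in the values below was not tested.

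The activin gene INHBA was at 1.03, 0.850 and 0.580 CPM in the controls and at 5.01, 3.06 and 3.62 CPM in the heated libraries, which did not overlap. The change was 2.23 ± 0.39 (edgeR adjusted p = 0.0888), and 2.01 without heat 1 (0.0122). INHBB, at 103, 114 and 121 CPM in the controls, was at 53.8, 53.6 and 61.8 CPM in the heated libraries (-0.998 ± 0.23, edgeR adjusted p = 0.106; -0.97 without heat 1, 0.00850). The 2 activin subunit genes thus differed in opposite directions, and in each case heat 1 lay with the other heated libraries. FST had 6, 2 and 1 reads in the controls and 9, 8 and 13 in the heated libraries and was not tested.

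TGFB2 was at 46.5, 45.9 and 39.3 CPM in the controls and at 4.04, 15.8 and 15.7 CPM after heat (-1.88 ± 0.51, edgeR adjusted p = 0.127; -1.49 without heat 1, 0.00437). LTBP1 was at 104, 109 and 116 CPM and at 30.9, 40.6 and 43.8 CPM (-1.51 ± 0.25, edgeR adjusted p = 0.0858; -1.38 without heat 1, 0.00427). BMP6 was at 75.9, 74.8 and 81.3 CPM and at 20.8, 40.2 and 22.9 CPM (-1.46 ± 0.32, edgeR adjusted p = 0.103; -1.29 without heat 1, 0.0194). In all 3 genes every heated library was below every control. TGFB1 was at 421 to 455 CPM in the controls and at 589, 336 and 177 CPM after heat, with heat 1 above and the other 2 below the controls.

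Among the receptors ACVR1B was at 38.4 to 40.6 CPM in the controls and at 62.7, 58.6 and 74.9 CPM after heat (0.74 ± 0.23, edgeR adjusted p = 0.149; 0.77 without heat 1, 0.0164). BAMBI was at 79.6 to 88.0 CPM and at 194, 128 and 113 CPM (0.80 ± 0.28, edgeR adjusted p = 0.187; 0.53 without heat 1, 0.0229). TGFBR1, BMPR1A and BMPR2 were at 10.8, 6.93 and 10.4 CPM in heat 1, at 35.6, 22.6 and 36.8 CPM in heat 2 and at 36.7, 23.5 and 27.0 CPM in heat 3, against control values of 30.2 to 35.5, 21.9 to 23.5 and 37.5 to 39.2 CPM. For these 3 receptors heat 1 was low in the way that 3D 1 and 3D 2 were.

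PMEPA1 was at 0.513, 0.453 and 0.232 CPM in the controls (4 to 9 reads) and at 15.8, 2.33 and 8.78 CPM after heat (48 to 164 reads). All heated libraries were above all controls, and the log2 fold change was 4.45 ± 0.80 (edgeR adjusted p = 0.0904), or 3.76 without heat 1 (0.0175). ID2 was at 57.4, 59.8 and 55.8 CPM and at 31.8, 25.9 and 29.3 CPM (-0.99 ± 0.22, edgeR adjusted p = 0.104; -1.07 without heat 1, 0.00598). ID1 was at 855, 786 and 804 CPM and at 566, 423 and 175 CPM (-1.07 ± 0.46, edgeR adjusted p = 0.249; -1.45 without heat 1, 0.0365). ID3 overlapped, with 364, 219 and 104 CPM after heat against 323 to 360 CPM. No SMAD passed, and SKIL ranged from 15.4 CPM in heat 1 to 127 CPM in heat 3 around control levels of 44.9 to 54.3 CPM.

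**Figure D4:**
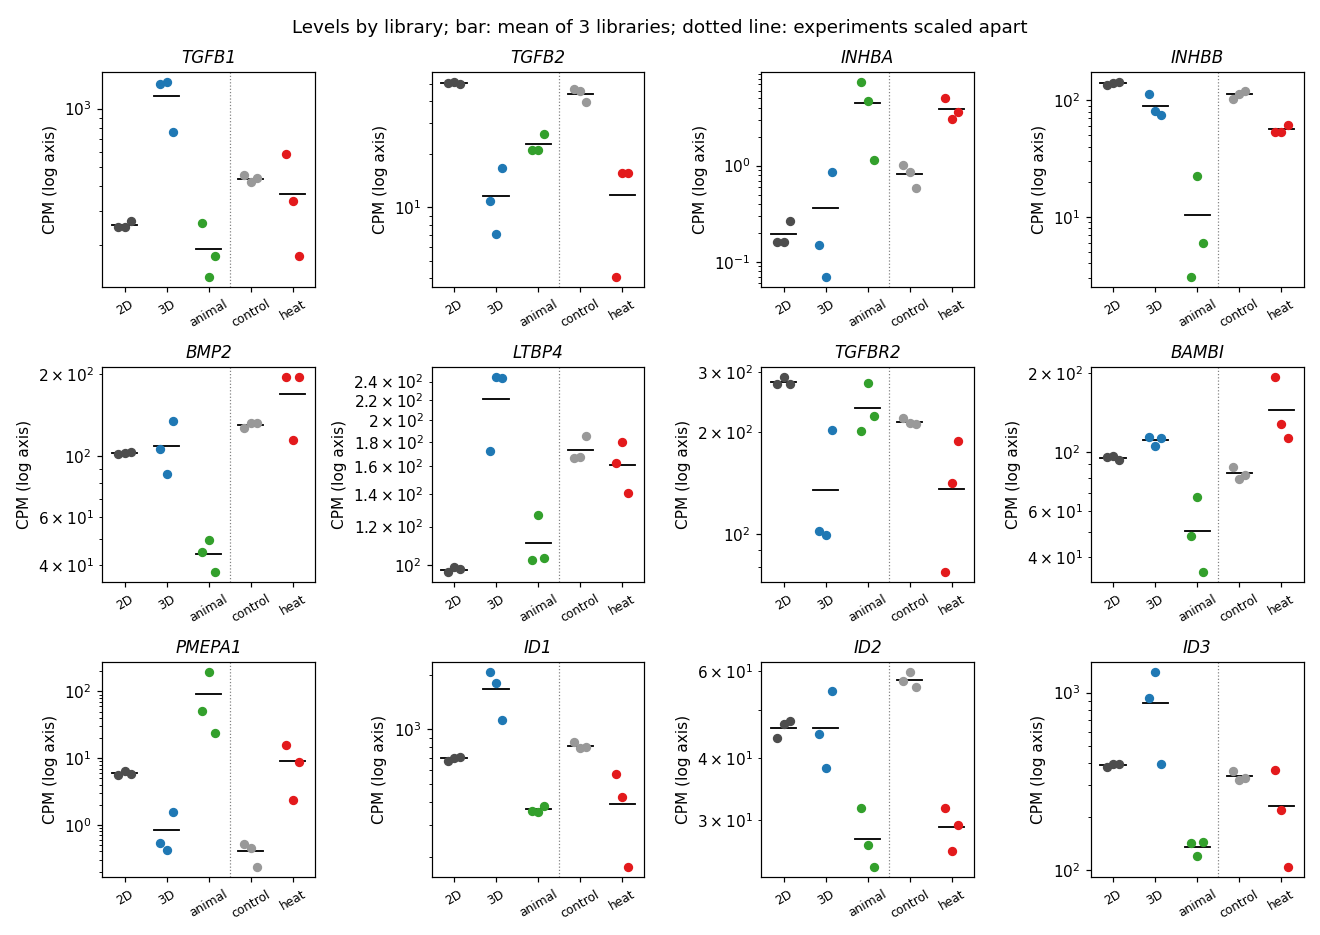
CPM of 12 members (panels, log axes) in each of the 15 libraries, with a bar at the mean of each group and a dotted line between the 2 experiments, which were scaled apart. INHBA and PMEPA1 are above their reference (2D or control) in the animal and heated libraries, INHBB and ID2 below it in both, and the means of ID1 and ID3 are highest in 3D.

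The 3D treatment controls of the second experiment carry the same model label as the 3D group of the first. The 2 groups belong to different experiments and were not tested against each other. When both were scaled together, the ranges overlapped for 23 of the 42 members, the controls were above all 3D libraries for 9 and below for 10. TGFB1 was at 421 to 455 CPM in the controls and 749 to 1430 CPM in the 3D libraries, and TGFB2 at 39.3 to 46.5 CPM against 7.34 to 16.6 CPM. PMEPA1 was low in both, at 0.232 to 0.513 and 0.436 to 1.53 CPM. The experiment and the culture cannot be told apart in these differences.

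A further 100 genes of the pathway that are not members were followed as lists, of which 99 had a row and LTBR did not match. In 3D against 2D, 11 of 65 tested were higher and 7 lower, where 20.0% of all genes were higher and 12.9% lower. The lists were 1 higher and 0 lower of 5 other ligands, 1 and 1 of 5 extracellular antagonists, 2 and 0 of 5 other receptors, 0 and 1 of 7 genes for activation of latent TGF-beta, 2 and 4 of 22 intracellular regulators, 5 and 1 of 14 TGF-beta target genes and 0 and 0 of 7 BMP target genes. JUNB, an AP-1 subunit gene, was at 446, 605 and 313 CPM in 3D against 108 to 121 CPM in 2D (1.96 ± 0.31, edgeR adjusted p = 0.00325). THBS1, whose product thrombospondin can activate latent TGF-beta, was lower at 39.5 to 44.7 against 132 to 139 CPM (-1.70 ± 0.30, edgeR adjusted p = 0.00475), and so were TGFBRAP1 (-1.04, 0.00464) and HIPK2 (-1.49, 0.00636).

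In the animal libraries 10 of the 65 were higher and 7 lower than in 2D (7.78% and 4.25% over all genes tested). Against 3D, 18 of the 65 were higher and 16 lower (18.6% and 22.9% over all genes tested). Against 2D these were 2 higher and 1 lower of the other ligands, 2 and 0 of the antagonists, 0 and 0 of the other receptors, 2 and 0 of the latent activation genes, 2 and 3 of the intracellular regulators, 2 and 0 of the TGF-beta targets and 0 and 3 of the BMP targets. Against 3D they were 1 and 1, 2 and 2, 0 and 1, 3 and 1, 6 and 2, 6 and 6, and 0 and 3 in the same order. COL1A1, a collagen gene that is also on the fibroblast list, was at 120, 247 and 60.3 CPM against 3.93 to 4.23 CPM in 2D and 0.489 to 1.06 CPM in 3D (log2 fold changes of 5.11 and 7.34, edgeR adjusted p = 0.000905 and 0.000317). COL4A1 was at 6.62, 13.1 and 4.06 CPM in the animal libraries and at 0 to 0.0755 CPM in the other 6 (edgeR adjusted p = 0.000989 against 2D and 0.000597 against 3D). ITGB8, an integrin subunit gene that activates latent TGF-beta, was at 6.80, 9.01 and 2.61 CPM against 0.269 to 0.424 CPM in 2D (4.15, edgeR adjusted p = 0.00307) and 0.0698 to 0.310 CPM in 3D (5.21, 0.00108). The BMP target GATA2 was at 17.0, 21.1 and 13.8 CPM against 81.1 to 89.8 CPM in 2D (-2.30, edgeR adjusted p = 0.00317), and DCN, a proteoglycan gene on the antagonist and fibroblast lists, at 20.6, 40.0 and 34.8 CPM against 1.61 to 4.53 CPM in 3D (3.25, edgeR adjusted p = 0.00118). After heat none of the 62 tested passed in edgeR.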

How the data were processed

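RNA of 15 libraries was sequenced from fragmented, random-primed mRNA as short single-end reads, per the labels' protocols, which name no strand marking. Per the submitters' processing notes, HISAT2 and hg19 were used; the counting program, annotation, strand setting and removal of host reads are not given in the sources used here. The authors deposited raw counts by gene symbol for every library; 27 rows whose symbol had become a date hold 0.168% of counts. Replicates held different values and differed beyond sampling noise. The members and gene lists were chosen with earlier results of these data known.

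Counts were filtered (filterByExpr) and scaled (TMM), and edgeR 4.0.16 in R 4.3.3 fitted a robust quasi-likelihood model by group, once for the first experiment (9 libraries) and once for the second (6). Calls needed an adjusted p (Benjamini-Hochberg over all genes tested) below 0.05. CPM values use TMM factors per experiment and are given per library. Depth limits the precision of members with few reads, whose reads are given. Every member called was named; of the pathway lists, counts and up to 4 genes with the smallest adjusted p per comparison. Alternatives were DESeq2 1.42.0, median-ratio scaling, no filter, a stricter filter (10 reads), the replicate number as a block, an offset for GC content and length (splines, 5 degrees of freedom; longest coding transcript of GENCODE 29, 99.1% of tested genes), only the 2 groups compared, leaving out each replicate, and leaving out 3D 1 and 3D 2. The scripts were tested on simulated data. Of true 4-fold changes, 72.0% were called in the right direction in 3D against 2D and 15.0% in heat against control. Of true 2-fold changes, 5.00% and 1.00% were called. Exon overlaps are from GENCODE 29 and promoters from RefSeq.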

Additional observations from a re-analysis of the deposited data

How the results depend on the processing

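Of the 41 calls of a member in a comparison, 12 were made under every alternative: TGFB1, TGFB2 and BMP6 in 3D against 2D, BMP2 and INHBB in animal against 2D, and TGFB1, INHBB, BMP2, BAMBI, PMEPA1, ID1 and ID3 in animal against 3D. Over the 562 alternative values of the 41 calls, 400 kept direction and call, 159 kept only the direction and 3 turned. With the GC and length offset the turned values were -0.41 for TGFB2, 0.061 for LTBP4 and 0.046 for SKI in animal against 3D. Among values that were not called, BAMBI in 3D against 2D turned to -0.31 and SMAD2 after heat to 0.13 with the same offset. The cause was not tested.

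The counts of members and genes moved as follows. Over the fits that each leave out 1 library, 3D against 2D gave 3 to 9 members higher, 2 to 16 lower and 1795 to 9493 genes in place of 4247; animal against 2D gave 0 to 5, 2 to 4 and 652 to 1154 in place of 1555; animal against 3D gave 1 to 17, 7 to 11 and 3361 to 10132 in place of 5367; heat gave 0 to 6, 0 to 6 and 0 to 3691 in place of 3. The highest values came without 3D 3 and without heat 1. With only the 2 groups compared, 2493 genes were called in 3D against 2D, 12 members higher, 12 lower and 7289 genes in animal against 2D, and 2 higher, 7 lower and 2746 genes in animal against 3D. With the offset, 13 members were lower and 4081 genes called in animal against 2D, and 3 members higher, 7 lower and 1382 genes called after heat. DESeq2 called 2437 genes in animal against 2D and, after heat, 1541 genes with 3 members higher and 5 lower. Median-ratio scaling called 1 gene after heat. Without 3D 1 and 3D 2, 4 members were higher in animal against 3D.

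The offset moved the share of calls that were higher from 60.9% to 49.3% in 3D against 2D and from 64.7% to 39.9% in animal against 2D. It moved the median of all genes from 0.03 to -0.11 in animal against 2D and from 0.10 to -0.07 in animal against 3D, where median-ratio scaling gave 0.00.

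Libraries with the same replicate number had correlations of their deviations over genes of -0.187 to 0.127. Between different numbers these were -0.225 to 0.262. With 3 libraries per group this cannot decide whether the numbers pair the libraries. With the replicate number as a block, 4 members were higher in 3D against 2D, 3 higher and 2 lower with 1031 genes called in animal against 2D, and 30 genes were called after heat, none of them a member.

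With 3 libraries per group, 2 or 1 of them set apart by GC content in the 3D and heat groups, a call that is missing does not show that levels were equal. Members with few reads, among them INHBA in culture, FST, TGFB3, INHBE, SMAD9 and ID4, have wide errors.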
